A study of Drosophila melanogaster with 96 samples.

Results

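Among 24 head libraries of female control flies, 4 held diptericin A (DptA) at 150 TPM or more: those of circadian time (CT) 24, CT52, CT56 and CT68. TPM is a gene's share of the transcripts of a library, corrected for gene length and scaled to the same sum in every library. The 4 libraries were chosen by this level of DptA alone, out of 96 libraries in all, and the other 20 female control libraries are the ones they are set beside. The series also holds 24 libraries of males with the control construct, and 24 of each sex with RNAi against the gene Achl (groups female Achl RNAi and male Achl RNAi). The labels do not describe the control construct or the driver of the RNAi. Flies of all groups were 3 to 5 days old, were kept at 25 degrees under 12 h of light and 12 h of dark, and were in constant darkness from 24 h before collection. Pools of 7 to 8 heads were collected every 2 h for 2 days, from CT24 to CT70, and each group had 1 library per time point. There are thus no replicates at a time point, and every p-value below measures only the spread between such libraries.

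Diptericins are secreted peptides that act on Gram-negative bacteria, and their genes are classical targets of the Imd pathway. In that pathway, receptors of the peptidoglycan recognition protein (PGRP) family sense bacterial cell wall, and the NF-kB factor Relish, encoded by Rel, switches on genes for diptericins, attacins, cecropins, drosocin and some PGRPs. The Toll pathway, which acts through the factors Dif and dorsal, is the main route to drosomycin (Drs) and to the short immune-induced peptides such as IM1 and IM2. In the adult fly most of these peptides come from the fat body, part of which lies in the head.

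DptA lies on 2R (assembly BDGP6, bases 18865765 to 18866260, plus strand). Its level was 814 TPM at CT24, 181 TPM at CT52, 3335 TPM at CT56 and 264 TPM at CT68. The other 20 libraries lay between 3.44 and 35.1 TPM, with a median of 7.36 TPM, so that the nearest values to the threshold were 181 TPM at CT52 inside it and 35.1 TPM at CT30 outside it. These values made the choice and are given without a test. The high libraries were not neighbours in time: the library between CT52 and CT56, at CT54, held 3.55 TPM, and those on either side of CT68 held 4.13 TPM at CT66 and 3.44 TPM at CT70.

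The libraries taken 24 h before or after the chosen ones, at the same phase of the day, were low. They held 9.29 TPM at CT48, 4.39 TPM at CT28, 3.49 TPM at CT32 and 7.28 TPM at CT44. At the 4 chosen times the male control libraries held 3.91 TPM at CT24, 66.4 TPM at CT52, 3.67 TPM at CT56 and 0.89 TPM at CT68. None of these reached 150 TPM. Only the male library of CT52 was above the 21 male controls of lowest DptA, which held at most 8.55 TPM. The target of the RNAi, Achl, was at 78.1 TPM at CT24, 37.2 TPM at CT52, 59.8 TPM at CT56 and 77.4 TPM at CT68, inside the range of 29.4 to 105 TPM of the other female controls. Every one of these values is above the highest of female Achl RNAi, 21.01 TPM. Within the second day, from CT48 on, the 9 libraries not chosen held Achl at 48.2 to 103 TPM, so CT52 was below each of them. The library 24 h before CT52, at CT28, held Achl at 40.9 TPM.

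**Figure D1:**
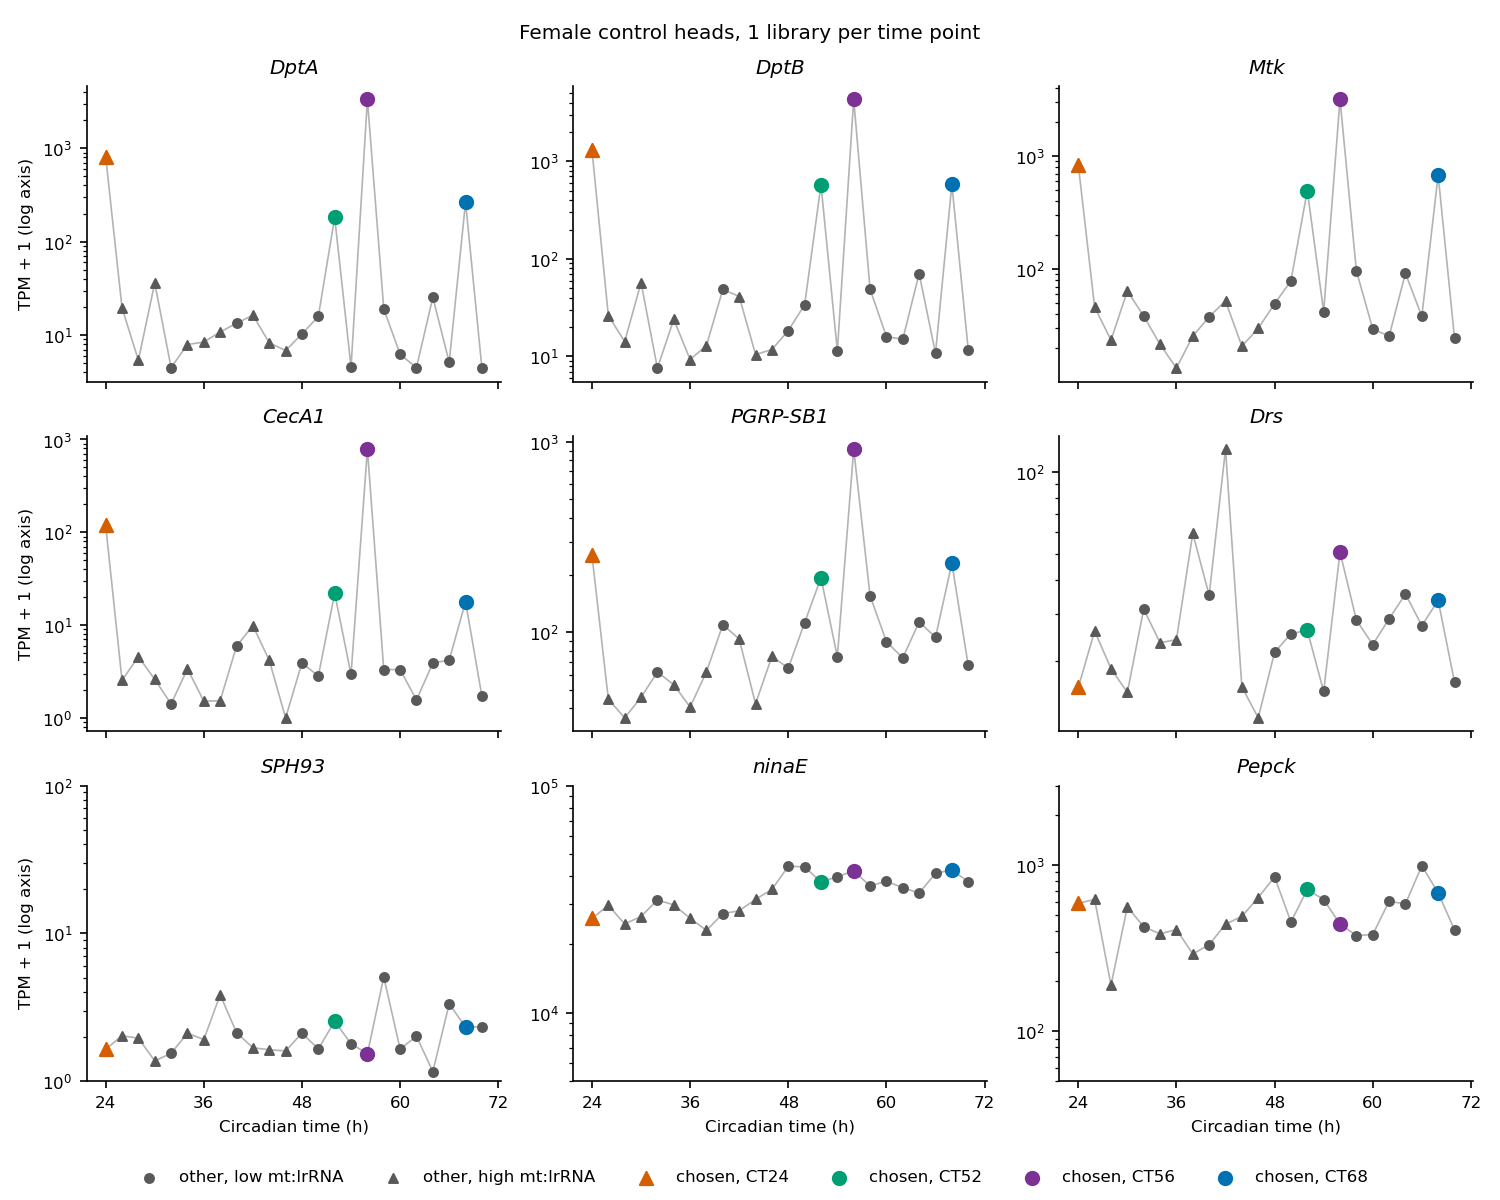
Level of 9 genes (TPM + 1, log axis) in the 24 female control libraries by circadian time, 1 library per point; coloured points are the 4 libraries chosen by DptA, grey points the other 20, and triangles mark libraries with high mt:lrRNA. DptB, Mtk, CecA1 and PGRP-SB1 peak in the same 4 libraries as DptA, while Drs, SPH93, ninaE and Pepck in these libraries stay inside the range of the other 20; Drs at CT56 is above the 11 others of low mt:lrRNA.

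The mitochondrial ribosomal RNA mt:lrRNA splits the female control libraries into a low and a high set, with 50000 TPM as the border. CT24 belongs to the first day and to the high set (92656 TPM), and CT52, CT56 and CT68 belong to the second day and to the low set (14425, 12204 and 17565 TPM). Of the other 20 libraries, 9 were in the high set and 11 in the low set. DptA in both sets of other libraries stayed low, at 4.39 to 35.1 TPM in the high set and 3.44 to 24.4 TPM in the low set. Photoreceptor genes mark these libraries as head: ninaE, the main rhodopsin, stood at 23028 TPM or more in all of them. Of 7 measured male reproductive genes 0 passed the filter on low values, of 11 ovary genes 1 passed, and of 11 gut genes 2 passed. The gut genes summed to between 4.57 and 9.79 TPM in the chosen libraries and between 2.91 and 16.2 TPM in the others, and the trypsins alphaTry, betaTry, deltaTry and thetaTry were at 0. Hemocyte genes summed to between 675 and 758 TPM in the chosen libraries and between 509 and 831 TPM in the others. In pooled heads, more cells of a type and more RNA per cell cannot be told apart.

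Besides DptA, 13 of 10567 genes were higher in every chosen library than in every other female control library, and 0 were lower in every one. As shares of the tested genes these are 0.123% and 0%. A gene was tested if it had at least 1 TPM in at least 24 of the 96 libraries. Because the libraries were selected on DptA, no test is given for this comparison. The 13 genes are DptB, AttA, AttB, AttC, CecA1, CecA2, Mtk, IM18, CG43236, edin, PGRP-SB1, CG43920 and CR45045. Of the 14 genes including DptA, 9 lie on 2R, 3 on 3R and 2 on 3L. All are immune effectors or recognition proteins where a role is known, and CG43920 and CR45045 are genes of less settled role. The files call CR45045 a noncoding RNA by its name, while the annotation used here lists the same identifier as CG45045.

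DptB, the second diptericin gene, starts 1130 bases beyond the end of DptA on the same strand of 2R (18867391 to 18867895). It was at 1311 TPM at CT24, 575 TPM at CT52, 4308 TPM at CT56 and 581 TPM at CT68, against 6.60 to 69.6 TPM in the other 20 libraries, with a median of 14.5 TPM. Each chosen library was therefore at least 8.25 times the highest of the others. On the log2(TPM + 1) scale the median of the chosen libraries exceeded that of the others by 5.82, the largest difference of the 13 genes and close to that of DptA itself, 5.80. At CT52 and CT68 DptB was nearly equal, although DptA differed between these libraries.

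AttC, on 2R (13393705 to 13394667), encodes an attacin, a glycine-rich peptide against Gram-negative bacteria. It was at 444 TPM at CT24, 240 TPM at CT52, 2377 TPM at CT56 and 281 TPM at CT68, against 4.32 to 27.6 TPM in the others, so the lowest chosen library was 8.70 times the highest other. The related attacins AttA and AttB, which neighbour each other on 2R (14747362 to 14748215 and 14749223 to 14750165), stood apart by less. AttA was at 74.97, 20.9, 500 and 23.9 TPM in the order CT24, CT52, CT56 and CT68, against 2.10 to 14.6 TPM. AttB was at 105, 38.5, 809 and 38.6 TPM in that order, against 2.87 to 23.9 TPM. The lowest chosen library was thus 1.44 times the highest other for AttA and 1.61 times for AttB. AttD, an attacin without a signal peptide, was at or near 0 in 3 of the 4 and at 3.56 TPM at CT56, against at most 2.03 TPM in the others.

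The cecropins CecA1 and CecA2 lie side by side on 3R (30210874 to 30211273 and 30212156 to 30212568) and encode peptides that disrupt membranes. CecA1 was at 118 TPM at CT24, 21.01 TPM at CT52, 784 TPM at CT56 and 16.8 TPM at CT68, against 0 to 8.86 TPM in the others. CecA2 was at 62.1, 15.6, 402 and 13.02 TPM in that order, against 0 to 8.85 TPM. CecB and CecC were high at CT24 and CT56 and close to the others elsewhere. CecC was at 44.6, 4.80, 210 and 7.41 TPM against at most 5.48 TPM, and CecB was at 10.3, 0.76, 73.7 and 1.51 TPM against at most 1.69 TPM, so both overlapped the others.

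Mtk, which encodes the antifungal peptide metchnikowin and responds to Toll as well as Imd, was at 838 TPM at CT24, 495 TPM at CT52, 3177 TPM at CT56 and 678 TPM at CT68. The others lay between 12.3 and 95.6 TPM. CG43236, which the annotation names Mtkl for its likeness to metchnikowin, was at 220, 59.2, 562 and 116 TPM against 7.80 to 46.6 TPM. IM18, an immune-induced peptide gene, was at 287, 60.9, 2012 and 150 TPM against 0.43 to 23.6 TPM. Each of these genes was ordered as DptA, with CT56 highest, then CT24, CT68 and CT52.

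Drosocin, encoded by Dro, missed the count by 1 library. It was at 158 TPM at CT24, 964 TPM at CT56 and 35.4 TPM at CT68, all above the highest other library at 20.6 TPM, and at 18.1 TPM at CT52, just below it. The gene edin, named for its rise during infection, was at 17.7, 2.81, 143 and 1.83 TPM, against 0 to 0.71 TPM. CR45045, on 3R (17667572 to 17667825), was at 773 TPM at CT24, 97.0 TPM at CT52, 1436 TPM at CT56 and 104 TPM at CT68, against 1.55 to 32.5 TPM. CG43920 was at 20.3, 11.9, 457 and 11.6 TPM against 1.07 to 8.87 TPM, the smallest difference of the 13 at 1.49 on the log2 scale, and it overlapped the others once each library was centred on its median. CR44404, which the annotation names IBIN, was at 30.2 TPM at CT24 and 284 TPM at CT56 against at most 4.15 TPM, and inside the range of the others at CT52 and CT68.

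**Figure D2:**
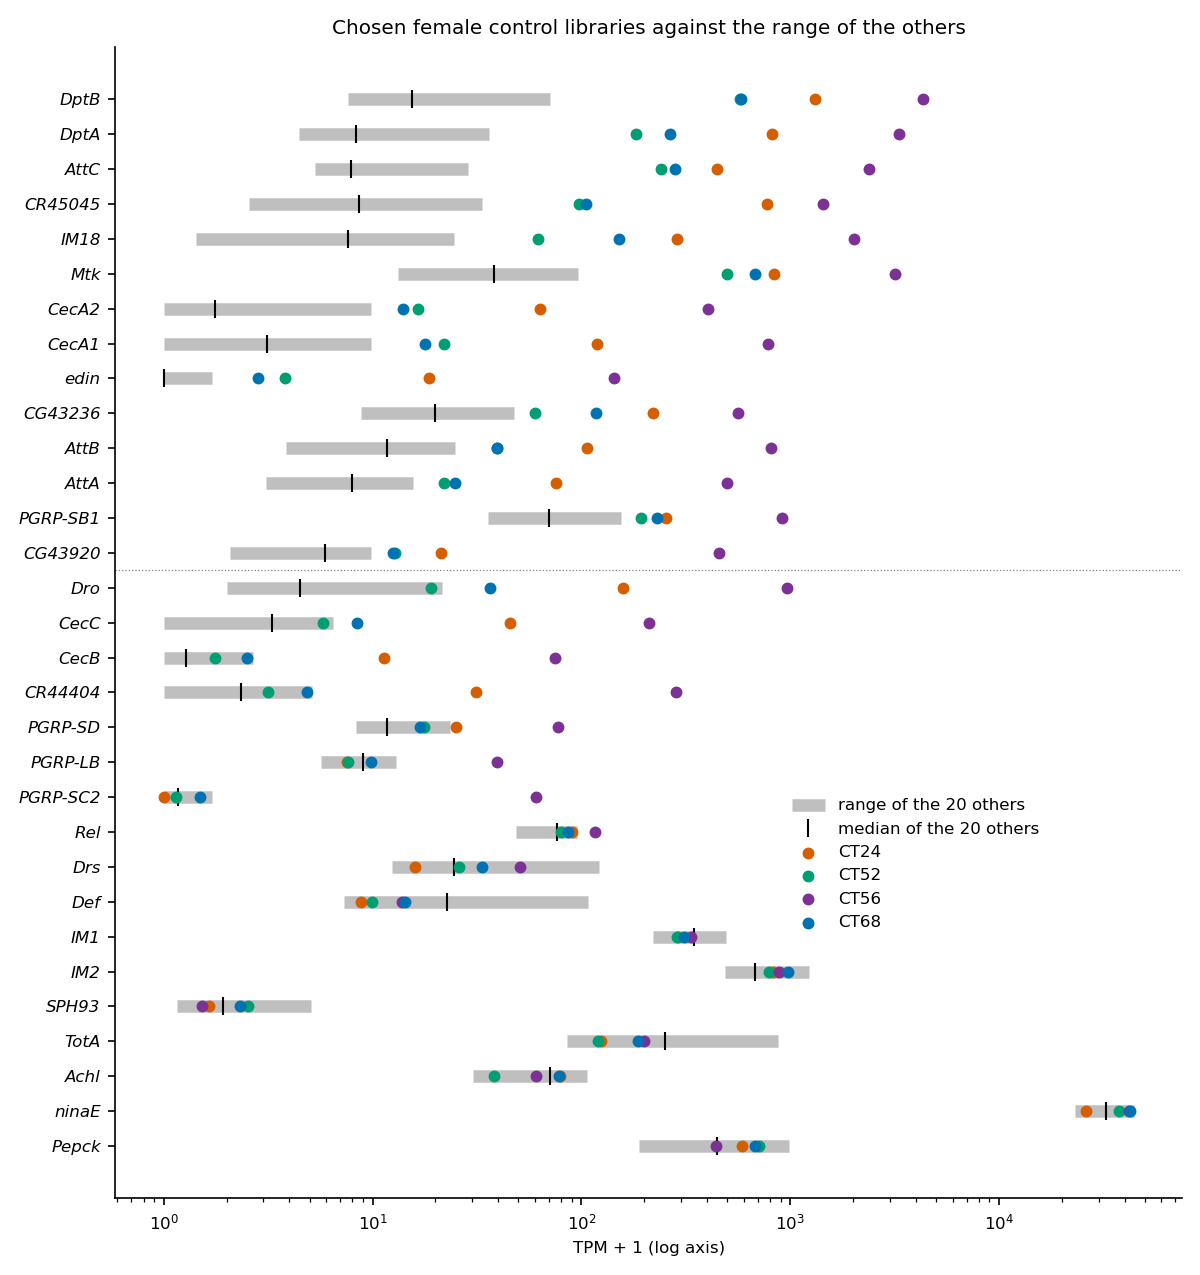
Level of 31 genes (TPM + 1, log axis): grey bars span the lowest to the highest of the 20 other female control libraries, ticks are their median, and coloured points are the 4 chosen libraries. The 14 genes above the dotted line lie to the right of the bar in all 4 libraries; CT56 is the highest of the 4 for each of them.

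In all 13 genes CT56 was the highest of the 4 libraries and CT24 the next, and in 9 genes the full order of DptA was kept. The remaining 4 genes, CecA1, CecA2, edin and CG43920, were lowest at CT68 and not at CT52. The number of genes that stood at least 2 times above every other female control library (on the log2(TPM + 1) scale) was 23 at CT56, 18 at CT24, 9 at CT52 and 7 at CT68, and 6 genes did so in all 4: DptA, DptB, AttC, Mtk, IM18 and CR45045. The 20 other libraries, each set against the remaining 19, had between 0 and 20 such genes, with a median of 1.5. At CT24 all 18 genes were among the 23 of CT56. At CT52 1 of the 9 was a small nucleolar RNA, and 7SLRNA:CR32864 was at 348 TPM there, against a highest value of 345 TPM in the others.

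Most genes of microbial recognition overlapped the other libraries. Of 13 tested PGRP and glucan-binding protein genes, 1 was higher in all 4 libraries, against 0.123% of all tested genes. It was PGRP-SB1, a secreted enzyme that cuts peptidoglycan. PGRP-SB1 was at 253 TPM at CT24, 193 TPM at CT52, 915 TPM at CT56 and 230 TPM at CT68, against 34.6 to 155 TPM. Above the range were 23.1% of the 13 at CT24, 15.4% at CT52 and 15.4% at CT68. The shares of all tested genes were 8.16%, 2.04% and 10.3%. At CT56 6 of the 13 genes, 46.2%, were above the range, against 5.47% of all tested genes. PGRP-SC2, an amidase that dampens the Imd response, was at 59.9 TPM there and at most 0.49 TPM in the other 3 chosen libraries, against at most 0.70 TPM. PGRP-LB, another such amidase, was at 38.3 TPM at CT56 against at most 12.0 TPM, and at 6.52, 6.63 and 8.80 TPM in the other chosen libraries. PGRP-SD, which aids recognition, was at 76.1 TPM at CT56 and 24.1 TPM at CT24 against at most 22.6 TPM. PGRP-SA, a recognition protein that acts in the Toll pathway, was at 27.6 TPM at CT56 and 18.7 TPM at CT68 against at most 18.6 TPM. The Imd receptor gene PGRP-LC was at 75.5, 85.5, 89.6 and 71.0 TPM in the order CT24, CT52, CT56 and CT68, against 52.5 to 82.8 TPM, so CT52 and CT56 were just above the range.

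Of 14 tested genes of Imd signalling, 0 stood apart in all 4 libraries, near the share over all tested genes, 0.123% higher and 0% lower. The largest difference of medians was 0.20 on the log2 scale, for Rel. Rel was at 88.8, 78.9, 116 and 85.7 TPM in the order CT24, CT52, CT56 and CT68, against 47.8 to 93.9 TPM, so only CT56 exceeded the range. The inhibitor pirk was at 19.8 TPM at CT56 against at most 14.3 TPM, and at 4.25 to 9.84 TPM in the other chosen libraries. Other inhibitors of the pathway lay inside the range at CT56, with casp at 41.7 TPM against at most 45.4 TPM and PGRP-LF at 23.5 TPM against at most 26.2 TPM. Of the 14 genes 3 were above the range at CT56 (Rel, imd and pirk), or 21.4%, against 5.47% of all tested genes. CG4269, at 16.8 TPM against at most 7.32 TPM, was also at least 2 times above the others at CT56, and is named here for having no place in the immune lists.

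Drs, IM1, IM2 and SPH93, genes that respond mainly to Toll or were high under Achl RNAi, lay inside the range of the other female controls in all 4 libraries. Def did so too. Drs was at 15.03 TPM at CT24, 25.1 TPM at CT52, 49.6 TPM at CT56 and 32.6 TPM at CT68, against 11.4 to 120 TPM. The 120 TPM came from a high mt:lrRNA library of the first day: within the low set CT56 was above all 11 others (14.5 to 34.5 TPM) and CT68 above 9 of 11. IM1 was at 291, 287, 334 and 310 TPM against 220 to 491 TPM, and IM2 at 823, 788, 881 and 976 TPM against 489 to 1230 TPM. Defensin, encoded by Def, was at 7.79 to 13.3 TPM against 6.29 to 107 TPM, with a median of 21.6 TPM in the others. In female Achl RNAi Def was at 8.63 to 288 TPM, which overlaps the controls. Of 15 tested immune-induced peptide genes, IM18 alone stood apart, and of 15 tested genes of Toll signalling 0 did, against 0.123% of all tested genes. At CT24 the Toll signalling genes Tl, Dif and Traf6 were above the range, 20% of the 15, against 8.16% of all tested genes, and Hayan was below it. The serine protease homolog gene SPH93 was at 0.64, 1.54, 0.53 and 1.32 TPM against 0.16 to 4.07 TPM. The stress gene TotA, a JAK-STAT target, was at 119 to 200 TPM against 84.4 to 875 TPM.

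Libraries with Achl RNAi held DptA at levels that take in those of CT24 and CT56. DptA in female Achl RNAi was between 370 and 10053 TPM with a median of 3188 TPM, so CT56 of the controls, at 3335 TPM, lay near the middle, with 11 of 24 RNAi libraries above it. Of the others, CT52 and CT68 were below it. IM1 was between 1150 and 16378 TPM in female Achl RNAi, IM2 between 3268 and 19575 TPM, Drs between 125 and 5429 TPM, IM23 between 51.7 and 1269 TPM and SPH93 between 6.73 and 1798 TPM. For these 5 genes each of the 24 female and 24 male RNAi libraries was above the control library of CT56. For Def 21 of 24 libraries of each sex were, and for TotA 19 of 24 female and 24 of 24 male ones. Def at CT56, 12.8 TPM, was also below the median of the other 20 female controls (21.6 TPM) and of male controls (21.8 TPM). The count for Def therefore tells little about RNAi. TotA was as high in males without RNAi, with a median of 1211 TPM in male controls and 1163 TPM in male Achl RNAi.

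At its level of DptA, CT56 resembled female RNAi in some targets and not in others, as ratios to DptA show. AttC was 0.713 of DptA at CT56, against a median of 0.738 over female Achl RNAi, and DptB was 1.29 times DptA, against a median of 1.59. CecA1 was 0.235 of DptA at CT56 against a median of 0.191. The ratio of Dro was 0.289 at CT56 and lower in the other 3 chosen libraries, against a median of 0.494 and a range of 0.278 to 1.19. CR44404 was 0.0850 of DptA at CT56 and 0.0118 to 0.0371 in the other 3, against a range of 0.0558 to 0.474. The ratio of Drs was 0.0149 at CT56, against 0.0785 to 1.97 over female Achl RNAi, and that of IM1 was 0.10 against 0.443 to 10.96. At CT24 both were below these ranges too, at 0.0185 and 0.357. At CT52 and CT68 both were inside them, Drs at 0.138 and 0.123 and IM1 at 1.59 and 1.17. Ratios at CT52 were higher for DptB, at 3.17, than in any RNAi library, where the highest was 2.50.

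**Figure D3:**
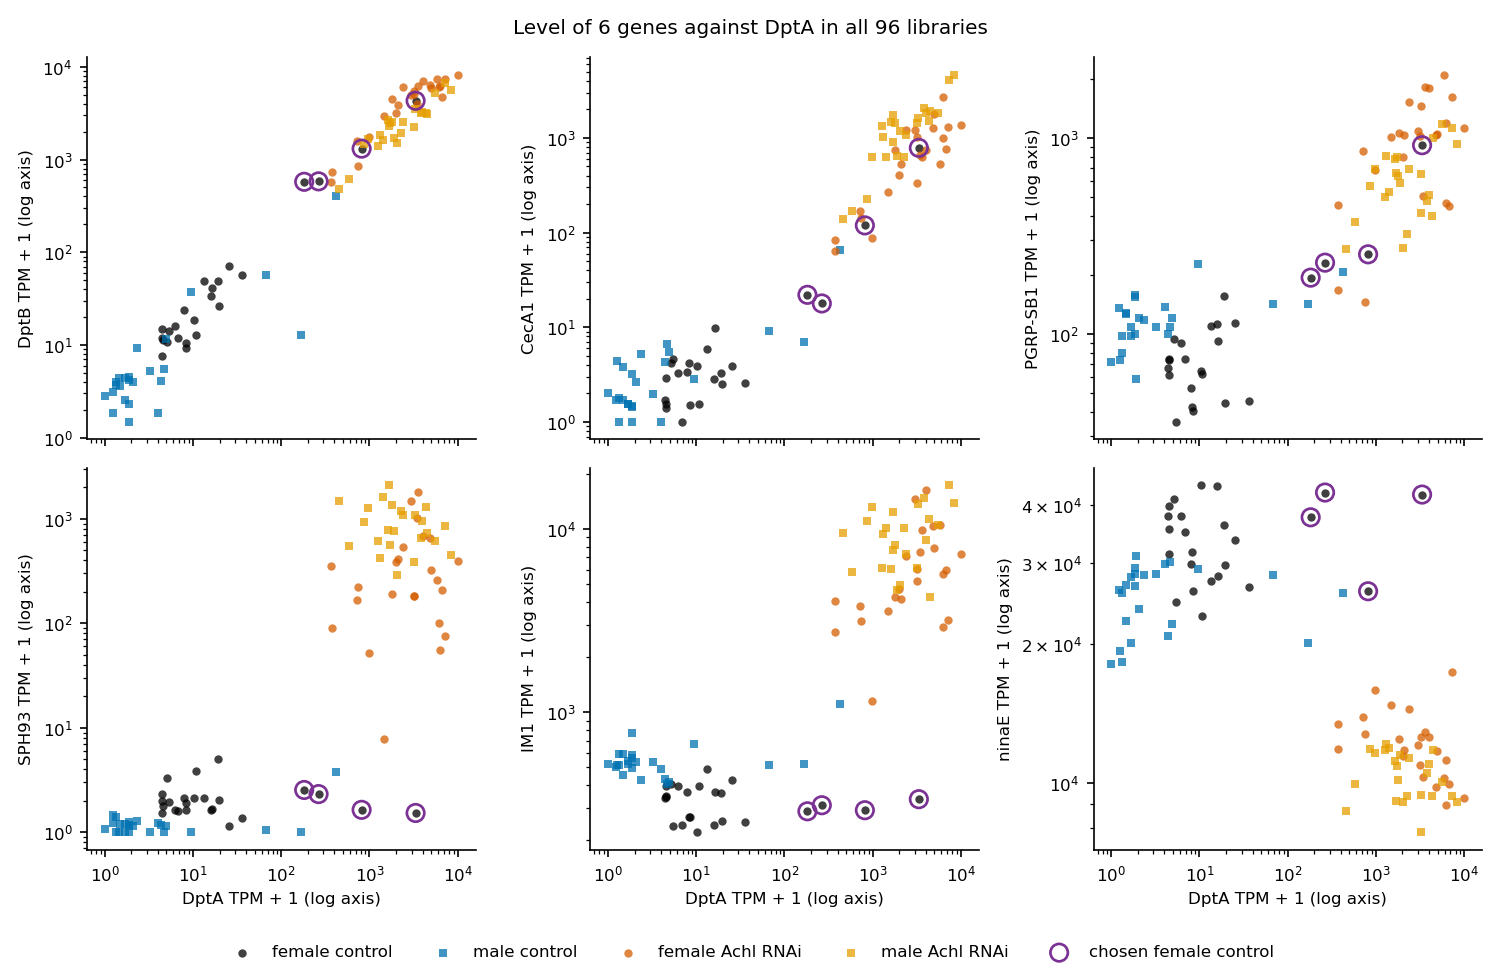
Level of 6 genes against DptA (TPM + 1, log axes) in all 96 libraries, coloured by group; rings mark the 4 chosen female control libraries. The rings lie with or next to the RNAi libraries for DptB and CecA1, and with the control libraries for SPH93, IM1 and ninaE.

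The rhodopsin gene ninaE, which is lower under Achl RNAi, lay inside the range of the other female controls in all 4 chosen libraries. It was at 26008 TPM at CT24, 37590 TPM at CT52, 42098 TPM at CT56 and 42521 TPM at CT68, against 23028 to 44131 TPM in the other 20. Within the high mt:lrRNA set, CT24 was above 2 of 9 other libraries. Within the low set, CT52 was above 5 of 11 and CT56 and CT68 each above 9 of 11, and those 11 lay between 27319 and 44131 TPM. In female Achl RNAi ninaE was between 8991 and 17379 TPM, and all 4 chosen libraries were above that. Of 26 tested photoreceptor genes 0 stood apart in all 4 libraries, near the share over all tested genes, 0.123% higher and 0% lower. The median difference of the photoreceptor genes was 0.07 on the log2 scale, against 0.04 over all tested genes. The channel gene trpl was at 632, 938, 1002 and 960 TPM against 475 to 1127 TPM, and the arrestin gene Arr2 at 10848, 13231, 15077 and 17213 TPM against 9153 to 16089 TPM, where CT68 was above the range. At CT68 5 of the 26 were above it, 19.2%, against 10.3% of all tested genes.

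Metabolic genes were set beside the other female control libraries in the same way. Pepck, the enzyme that commits carbon to gluconeogenesis, was at 585 TPM at CT24, 711 TPM at CT52, 440 TPM at CT56 and 678 TPM at CT68, against 188 to 986 TPM, and its values are the same as those of CG45087 in every library. CT56, with the highest DptA, had the lowest Pepck of the 4. In female Achl RNAi Pepck was between 38.7 and 506 TPM. Of 47 tested genes from 4 metabolic lists (gluconeogenesis and fat storage, glycolysis, sugar and starch digestion, insulin and starvation) 0 stood apart in either direction, with a median difference of 0.07. This count is near the share over all tested genes, 0.123% higher and 0% lower, and so tells little about metabolic genes. The fatty acid synthase gene FASN1 was at 264, 436, 562 and 531 TPM against 277 to 707 TPM, and the glucosidase gene tobi at 65.5, 50.1, 108 and 165 TPM against 29.2 to 371 TPM. Single libraries did leave the range: at CT24 7 of the 47 genes were below every other library (FASN1, ACC, CG3902 and the glycolytic genes Eno, Gapdh2, Pgi and Tpi), 14.9%, against 2.71% of all tested genes. The 12 measured glycolysis genes summed to 2372 TPM at CT24, below the lowest other library at 2381 TPM. At CT68 4 of the 12 glycolysis genes, Eno, Gapdh1, Pfk and Pglym78, were above the range, 33.3%, against 10.3% of all tested genes. At CT52 0 of the 47 were outside the range. At CT56 0 were below it, and Thor and sug were above it, 4.26% of the 47, against 5.47% of all tested genes.

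Lsp2, a storage protein gene of the fat body, had the largest difference of the metabolic and fat body lists, lower by 1.43 on the log2 scale in the chosen libraries (a signed difference of -1.43). It was at 132 TPM at CT24, 8.94 TPM at CT52, 19.8 TPM at CT56 and 21.1 TPM at CT68, against 1.49 to 349 TPM. The other second-day libraries lay between 1.49 and 63.2 TPM with a median of 24.8 TPM, so CT52, CT56 and CT68 were each above at least 2 of those 9. The carrier gene apolpp was at 3745, 2475, 2010 and 1550 TPM, and CT68 was below the lowest of the others, 1629 TPM. The yolk protein gene Yp1 was at 16602 to 20936 TPM against 13914 to 24331 TPM.

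The 10 mitochondrially encoded genes had a median difference of -0.97, with 3 of the 4 chosen libraries in the low mt:lrRNA set. The part of these sets in the values above was not tested. The 13 genes are above the others within each set too, as the count over all 20 requires. Of the lists for other cell types and functions, hemocyte (11 tested genes), muscle (10), neuron (10), glia (8), core clock (9), heat shock (11) and detoxification (15), 0 genes stood apart in all 4 libraries. That is near the share over all tested genes, 0.123% higher and 0% lower. Neuron markers left the range in single libraries and in opposite directions. At CT24 5 of 10 were above it, against 8.16% of all tested genes. At CT68 7 of 10 were below it, against 6.32% of all tested genes. At CT52 and CT56 0 of the 10 were outside. Their part in the values of CT24 and CT68 was not tested.

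Whether genes move with DptA was tested in male controls, female Achl RNAi and male Achl RNAi, which the choice did not use. The same fit was made in the 20 female control libraries below the threshold. The rule read DptA in these as well, so their slopes are a description and give no independent support. In each of these 4 sets, every tested gene on the log2(TPM + 1) scale was fitted in limma on log2(TPM + 1) of DptA, with a cosine and a sine term for the 24 h cycle. A slope of 1 means that a gene doubles whenever DptA doubles. P-values are two-sided and adjusted by Benjamini-Hochberg over all tested genes, with a threshold of 0.05.

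In the 20 female control libraries below the threshold, where DptA ranged from 3.44 to 35.1 TPM, 3 genes rose with DptA and 0 fell in limma, 0.0284% of 10565 tested, and 163 (1.54%) had an unadjusted p under 0.05 in either direction. DptB had a slope of 0.92 ± 0.12 (SE), AttC a slope of 0.62 ± 0.10 and IM18 a slope of 1.05 ± 0.16. CR45045 had a slope of 0.79 ± 0.15 and missed the threshold. The calls rest on few libraries: without CT30 and CT64, the 2 of highest DptA, 0 genes passed in limma (186 at an unadjusted p under 0.05), and 0 passed in the high mt:lrRNA libraries alone (193 unadjusted).

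In male controls the highest DptA was 422 TPM at CT54, 167 TPM at CT28 and 66.4 TPM at CT52, and the other 21 libraries lay between 0 and 8.55 TPM. Over the 24 libraries 7 genes rose with DptA and 0 fell in limma, 0.0663% of 10560 tested, and 292 (2.77%) had an unadjusted p under 0.05 in either direction. They were DptB, AttC, Mtk, IM18, CR45045, Dro and PGRP-SD, of which 5 (71.4%) are among the 13, or 38.5% of those. CR45045 had a slope of 0.81 ± 0.07 with adjusted p = 1.1e-06 and Mtk a slope of 0.67 ± 0.07 with adjusted p = 2.77e-06 (limma). PGRP-SD moved least, with a slope of 0.14 ± 0.02 and adjusted p = 0.00261. Without CT28, CT52 and CT54 the count in limma was 0, with 2235 genes at an unadjusted p under 0.05, and the slope of Dro changed sign, to -0.14.

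The 3 male libraries of high DptA were not alike. At CT54 DptB was at 401 TPM, AttC at 289 TPM and Mtk at 529 TPM, levels between or near those of the female libraries of CT52 and CT68 for AttC and Mtk. At CT28 DptB was at 11.8 TPM only, inside the range of the other 21 males (0.48 to 36.4 TPM), although Mtk was at 282 TPM, Dro at 109 TPM and IM18 at 114 TPM. The ratio of DptB to DptA was thus 0.0704 at CT28, 0.839 at CT52 and 0.950 at CT54, and 1.29 or more in the 4 female libraries. In these males Drs was at 47.9 TPM at CT28 and 121 TPM at CT54, above the other 21 males (at most 26.02 TPM), and IM1 was at 1108 TPM at CT54 against at most 770 TPM. The male library of CT54 was thus above its group in Drs and IM1 as well as in DptA, while the 4 female libraries were inside theirs, except that CT56 was above its mt:lrRNA set in Drs; this difference between single libraries was not tested.

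Under Achl RNAi, DptA was high in every library and more genes were called than in the control sets. Slopes were not compared between groups, so the counts do not show that more genes follow DptA. In male controls the medians of edin, CecB and CR44404 were 0 TPM. In female Achl RNAi 21 genes rose and 0 fell in limma, 0.199% of 10567 tested, with 1196 at an unadjusted p under 0.05, and 12 of the 13 genes were among them (92.3% of the 13, and 57.1% of the 21). In male Achl RNAi 20 rose, 0.189% of 10563 tested, with 10 of the 13 among them (76.9% of the 13, and 50% of the 20). There 3 genes fell, and after centring each library on its median 125 rose and 113 fell. CG43920 was among the steepest, with slopes of 1.23 ± 0.10 in females (adjusted p = 5.8e-08) and 1.0 ± 0.09 in males (adjusted p = 1.77e-07, limma). CecA1 had slopes of 0.93 ± 0.11 and 1.02 ± 0.11, with adjusted p = 9.48e-06 and 8.42e-06 (limma). The overlap of the 13 with the RNAi calls is partly set by the filter, which counts RNAi libraries too. A gene near 0 in most control libraries was tested only if RNAi libraries carried it past the filter. Such a gene is edin, at 0 to 0.71 TPM in the other female controls and 2.26 TPM or more in female Achl RNAi.

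DptB, AttC, IM18, CR45045 and Dro were called in each of the 3 groups that the choice did not use. Of these, DptB, AttC and IM18 were also called in the female controls below the threshold. PGRP-SB1, high in all 4 chosen libraries, was the 1 gene of the 13 called in none of the 4 sets, with slopes from 0.12 to 0.40 and adjusted p from 0.158 to 1 (limma). PGRP-LB, which stood out at CT56 only, rose with DptA in both RNAi groups, with slopes of 0.31 ± 0.06 (adjusted p = 0.0281) in females and 0.36 ± 0.07 (adjusted p = 0.0164) in males. The inhibitor pirk rose in male Achl RNAi, with a slope of 0.33 ± 0.04 and adjusted p = 0.000157, and had 0.17 ± 0.06 with adjusted p = 0.435 in females. CG43175 and CG42559, little known genes, rose in both RNAi groups and were at most 9.62 TPM and 0.71 TPM in the chosen libraries. CG43175 was at 3.05, 0.97, 9.62 and 0.29 TPM there, against at most 0.55 TPM in the others. In male controls CG43175 was at most 0.31 TPM and CG42559 at most 0.41 TPM, so both passed the filter through RNAi libraries.

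**Figure D4:**
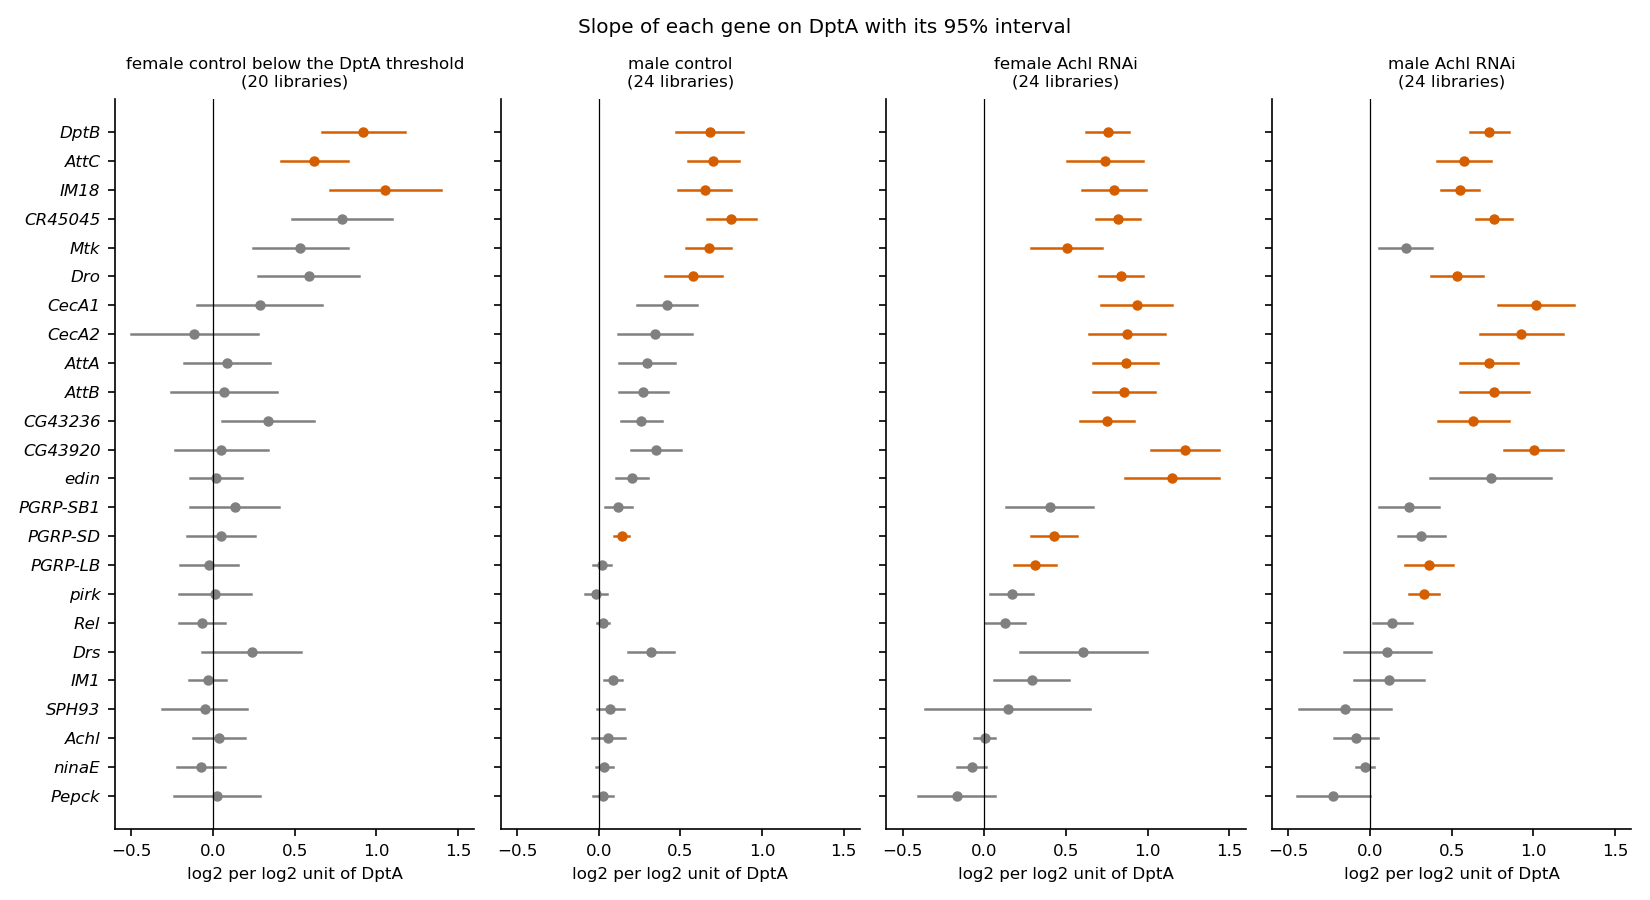
Slope of 24 genes on DptA, in log2 units per log2 unit of DptA, with 95% intervals, in the female control libraries below the threshold, whose DptA the choice read, and in the 3 groups that the choice did not use; orange marks adjusted p below 0.05. DptB, AttC and IM18 are orange in all 4 sets, and the intervals of ninaE, Pepck, SPH93 and Achl include 0 in both control sets.

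Of 16 antimicrobial peptide genes in the fits, 2 rose with DptA in the female controls below the threshold, 4 in male controls, 10 in female Achl RNAi and 7 in male Achl RNAi. Of all tested genes 0.0284%, 0.0663%, 0.199% and 0.189% were called as rising, in the same order. The median slopes of the 16 were 0.10, 0.28, 0.74 and 0.52, against -0.03, 0.01, -0.05 and -0.04 over all tested genes. At an unadjusted p under 0.05 were 5, 11, 12 and 13 of the 16 (limma). Of all tested genes 1.54%, 2.77%, 11.3% and 25.2% were at that level in the same order, the last being 2661 genes. Of 15 Toll signalling genes 0 were called in any set, with 0, 0, 3 and 8 at an unadjusted p under 0.05 in the same order (limma), and of 14 Imd signalling genes pirk alone was called, in male Achl RNAi.

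Drs, SPH93 and IM1 were not called in any of the 4 sets. Drs had slopes of 0.24 ± 0.14, 0.32 ± 0.07, 0.61 ± 0.19 and 0.11 ± 0.13 in female controls below the threshold, male controls, female and male Achl RNAi, with adjusted p from 0.0952 to 0.972 (limma). SPH93 had slopes of -0.05, 0.07, 0.14 and -0.15 in the same order, with adjusted p from 0.461 to 1. IM1 had -0.03, 0.09, 0.29 and 0.11, with adjusted p from 0.435 to 0.972. The interval of SPH93 in female Achl RNAi ran from -0.36 to 0.65, so a shared rise of moderate size could not be told from none there.

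For ninaE the slopes were -0.07 ± 0.07 in female controls below the threshold, 0.03 ± 0.02 in male controls, -0.08 ± 0.04 in female Achl RNAi and -0.03 ± 0.03 in male Achl RNAi. None passed, with adjusted p from 0.431 to 1 (limma), and the 95% intervals ran from -0.22 to 0.07, from -0.02 to 0.08, from -0.17 to 0.01 and from -0.09 to 0.02. Pepck had slopes of 0.02 ± 0.12, 0.02 ± 0.03, -0.17 ± 0.11 and -0.23 ± 0.11 in the same order, with adjusted p from 0.196 to 1. Its intervals were wide outside male controls, at -0.24 to 0.29 in female controls and -0.45 to 0.00 in male Achl RNAi. Of the 26 photoreceptor genes 0 were called in any of the 4 sets, with 0, 2, 3 and 9 at an unadjusted p under 0.05 in the same order (limma). Of the 47 metabolic genes 0 were called, with 2, 3, 4 and 19 at that level. In male Achl RNAi, the set with the 9 and the 19, 25.2% of all tested genes were at that level.

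In male Achl RNAi 3 genes fell as DptA rose, 0.0284% of those tested: spin, a lysosomal transporter gene, with a slope of -0.13 ± 0.02 (adjusted p = 0.00403), the storage protein gene Lsp1beta with -0.61 ± 0.12 (adjusted p = 0.015) and l(2)35Be with -0.31 ± 0.06 (adjusted p = 0.0152, limma). In the chosen female libraries spin was at 94.3 to 120 TPM against 77.7 to 135 TPM, inside the range of the others. Lsp1beta was at 738 TPM at CT24, above the highest other library (598 TPM), and at 152 to 187 TPM in the other 3. Lsp2 had a slope of -1.10 ± 0.24 in male Achl RNAi with adjusted p = 0.0606, and 0.96 ± 0.35 with adjusted p = 0.972 in female controls below the threshold.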

How the data were processed

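Each of the 96 libraries was a stranded mRNA library from 200 ng of RNA, per the labels. The submitters' processing notes name STAR, RSEM and dm6 as the authors' tools and build, with versions not given in the sources used here. What the authors deposited is 1 TPM value for each of 17698 genes and each library. Depth is unknown, so no counting interval is given, and precision is read from the spread between libraries. Columns not used numbered 0. The filter (1 TPM or more in 24 or more libraries) kept 10568 genes, and differences are on the log2(TPM + 1) scale, which understates changes of low genes. Values of 116 tested genes equalled those of another gene throughout.

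The chosen libraries (DptA of at least 150 TPM) are described by the values of each, by the difference of medians and by a count of genes without overlap. Slopes on DptA came from limma 3.58.1 in R 4.3.3, with trend and robust options, separately in 3 groups that the choice did not use and in the 20 female controls below the threshold, whose DptA it read; the method was tested on simulated data. Positions come from Ensembl release 115 (BDGP6, which is dm6). Python 3.11.15 and matplotlib 3.10.9 drew the figures.

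The members, gene lists and tests were chosen with earlier results of these data known. Genes named were DptA, ninaE, Achl, Pepck and SPH93, up to 4 members of each list by difference of medians with its defining members, the 10 largest rises and falls without overlap with a median of at least 5 TPM, and the 6 of lowest p per direction and set. Further genes were named after their values were seen, among them CG4269, 7SLRNA:CR32864, trpl, Arr2, CG43175 and CG42559. Alternatives were another pseudocount, no filter, median centring, other thresholds of DptA, single libraries left out, and day, mt:lrRNA, DptB or no covariates in the fits; the sets without the 3 male libraries and by mt:lrRNA were added after the data were seen.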

Additional observations from a re-analysis of the deposited data

Results flagged for a closer look

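In the 4 chosen libraries, CT56 lay far above the other 3 for 10 of 23 genes examined, with the gap to the next library, as a share of the whole range of the 4, above Dixon's critical value. The values at CT56 were 500 TPM (499.75) for AttA, 809 TPM (808.66) for AttB, 2377 TPM (2376.71) for AttC, 3.56 TPM for AttD, 964 TPM (964.11) for Dro, 784 TPM (784.16) for CecA1, 402 TPM (401.6) for CecA2, 73.7 TPM for CecB, 3177 TPM (3177.24) for Mtk and 915 TPM (914.68) for PGRP-SB1. The rate of about 1 in 20 groups flagged by chance is for groups not picked by a measured value, so it does not apply here. DptA, which made the choice, was itself at 3335 TPM at CT56 and at 181 to 814 TPM in the other 3. The flags are thus a description and no test. These genes move together, so the 10 flags are not independent. DptA and DptB were not among the 10, since CT24 lay closer to CT56 for them. The 4 libraries were picked for high DptA and form no group of the study.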

How the results depend on the processing

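Depth is unknown and each time point has 1 library per group. No paired analysis was possible because the libraries compared lie within 1 group, where no replicate number is shared; libraries 24 h apart are given as values. The 13 genes higher in every chosen library were among those found under each alternative, except that CG43920 overlapped with median centring (12 higher). The count was 35 higher and 2 lower with DptA of at least 300 TPM, 32 and 27 on the second day only, and 23 and 22 in the low mt:lrRNA libraries only. Leaving out 1 chosen library at a time gave 14 to 20 higher and 0 to 3 lower, with 20 and 3 without CT24. Fewer libraries on one side make absence of overlap easier, so the larger counts follow from how these alternatives are built.

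In male controls 4 genes passed without the 2 libraries farthest in DptA and 0 without CT28, CT52 and CT54, where the slope of Dro was -0.14. In female controls below the threshold 5 passed with median centring, 6 with day as a term, 0 without the 2 libraries farthest in DptA and 0 in the high mt:lrRNA libraries alone. In male Achl RNAi 238 passed (125 higher and 113 lower) with median centring and 38 with mt:lrRNA as a term; the cause was not tested. Of 455 slopes of called genes under alternatives, 406 kept direction and call, 48 lost the call and 1 changed sign. Slopes of ninaE and Pepck passed under 0 alternatives; the sign changed for Pepck in female controls below the threshold (-0.10 without the 2 farthest libraries, -0.0083 with DptB as the regressor, -0.12 in the low mt:lrRNA libraries alone) and for ninaE in male Achl RNAi (0.0135 with median centring).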
